A study of Mus musculus with 2 samples.

Results

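Cytosine methylation is written and removed by a small set of enzymes, and 9 of their genes were followed here through red cell development in the mouse fetal liver. The genes were Dnmt1, Dnmt3a, Dnmt3b, Uhrf1, Tet1, Tet2, Tet3, Mbd4 and Tdg, taken by symbol from a count table of 27998 genes, and all 9 were present. They were read by CITE-seq, which counts transcripts and antibody barcodes in the same single cells. The cells were C57BL/6 fetal liver cells from pooled e13.5 embryos, carried no named allele or treatment, and gave 1 cDNA library and 1 antibody library.

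Stages were ranges of 2 antibodies in cells low for 5 antibodies to other lineages. Ter119 is a surface antigen of maturing red cells, and CD71 is the transferrin receptor. Ter119-low cells were S0-low (1510 cells), S0-medium (1054) and S1 (612) by rising CD71. S2 (1297) was Ter119-intermediate with high CD71, and the Ter119-high cells were S3 (838) where CD71 was high and S4/S5 (898) where it was low. Cells positive for Ter119 were depleted and then added back in equal number during preparation, so numbers of cells do not describe the organ. The embryos cannot be told apart within the library, and there was no replicate: every interval below is an exact 95% interval for counting error alone, and no difference between stages was tested.

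Methylation of CG dinucleotides is copied after DNA replication by DNMT1, which UHRF1 brings to the newly made strand. DNMT3A and DNMT3B add methyl groups at new sites. TET1, TET2 and TET3 oxidise methylcytosine, and the glycosylase TDG cuts out the oxidised bases, while MBD4 removes the thymine left when a methylcytosine is deaminated. DNA methylation is known to fall across the genome as fetal red cells mature, and DNMT3A and TET2 are known for their roles in blood stem cells.

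Positions are on GRCm38, the assembly of the mm10 build that the files use. Dnmt1 lies on the minus strand (chr9:20907206-20959888) and Uhrf1 on the plus strand (chr17:56303337-56323486). Dnmt3a (chr12:3801559-3914443) and Dnmt3b (chr2:153649411-153687730) are on the plus strand. Tet1 (chr10:62804570-62887469), Tet2 (chr3:133463677-133545136) and Tet3 (chr6:83362373-83457208) are on the minus strand. Mbd4 is on the minus strand (chr6:115840697-115853400) and shares 22 bases with Ift122. Tdg is on the plus strand (chr10:82629814-82650799) and shares its last 369 bases with Glt8d2. The strand of Glt8d2 was not read, and whether the overlap affects the counts of Tdg was not tested. Dnmt3a encloses the long non-coding gene Dnmt3aos, which has a row of its own in the table.

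Promoter windows of 300 bases (250 before to 50 after a transcription start) came from RefSeq on GRCm38.p6, which listed 14 windows for the 9 members. They are shown because Dnmt1 and Uhrf1 moved together across the groups of cells described below, and Dnmt3b did not move with them. Capitals mark an E2F-type word, the kind of site bound by E2F factors that act on replication genes. Of the 14 windows, those of Dnmt1 and Uhrf1 printed here held such a word, and the single window of Dnmt3b held none. The windows of Mbd4 and Tdg, whose levels also moved with Dnmt1 and Uhrf1, held none either. The printed windows are the third listed window of Dnmt1 (chr9:20952574-20952873, minus strand), the second of Uhrf1 (chr17:56304063-56304362, plus strand) and the window of Dnmt3b (chr2:153649199-153649498, plus strand).
Dnmt1: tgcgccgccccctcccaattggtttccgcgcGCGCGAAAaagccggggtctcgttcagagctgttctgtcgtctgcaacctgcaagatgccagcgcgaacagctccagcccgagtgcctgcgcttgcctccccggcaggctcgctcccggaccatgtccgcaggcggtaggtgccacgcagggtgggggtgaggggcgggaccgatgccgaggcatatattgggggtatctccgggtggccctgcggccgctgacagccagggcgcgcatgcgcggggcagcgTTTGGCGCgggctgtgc
Uhrf1: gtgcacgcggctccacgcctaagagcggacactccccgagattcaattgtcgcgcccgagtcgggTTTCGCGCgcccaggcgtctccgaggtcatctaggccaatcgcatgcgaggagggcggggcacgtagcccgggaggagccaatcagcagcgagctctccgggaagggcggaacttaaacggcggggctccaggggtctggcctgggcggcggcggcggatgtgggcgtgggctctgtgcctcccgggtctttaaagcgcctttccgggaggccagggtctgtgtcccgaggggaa
Dnmt3b: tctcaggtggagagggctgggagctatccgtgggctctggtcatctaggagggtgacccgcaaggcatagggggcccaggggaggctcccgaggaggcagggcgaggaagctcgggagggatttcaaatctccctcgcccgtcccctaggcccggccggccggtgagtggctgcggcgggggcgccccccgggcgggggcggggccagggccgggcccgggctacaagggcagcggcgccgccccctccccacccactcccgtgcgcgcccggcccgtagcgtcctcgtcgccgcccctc

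The words searched were TTTCCCGC, TTTGGCGC, TTTCGCGC and TTTGCCGC on both strands. The Dnmt1 window held TTTCGCGC on the opposite strand from base 32 and TTTGGCGC from base 284, and the Uhrf1 window held TTTCGCGC from base 66. None of these overlapped a CCAAT or GATA word. Over all 32851 RefSeq promoters, 2.26% held at least 1 of the 4 words. CCAAT was found in 7 of the 14 windows against 37.4% of all promoters, and the GATA-type words AGATAA and TGATAA in 0 of 14 against 18.6%. A match describes letters, not a bound site. CG dinucleotides numbered 2 to 57 per window, with a median of 7 over all promoters. The printed windows of Dnmt1 and Uhrf1 held 33 each, and 91.4% of all promoters held fewer. The printed window of Dnmt3b held 30. The words searched contain CG themselves, and the share of 2.26% was not matched for CG number.

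The library held 7863 cells with 2510 to 38047 UMIs each (median 5707), and 7244 cells passed the limits. Levels are UMIs of a gene per 1000000 UMIs of all genes, summed over the cells of a stage (CPM). Series of 6 values follow the order of the stages, from S0-low to S4/S5. Globin transcripts took 1.05, 1.39, 2.80, 13.1, 37.6 and 64.0% of UMIs. Some levels are therefore also given with globin left out of the total (non-globin CPM). A level given in CPM alone may still change on that scale. S0-low was mixed, with 227 of its 1510 cells in clusters of other types, against 1 to 4 cells in each later stage. All 12 hepatocyte markers read were highest in S0-low, Alb with 1925 CPM there and 92.3 to 267 CPM elsewhere. So were 8 of 9 early progenitor markers (Cd34 at 68.1 CPM there and 1.19 to 3.89 CPM elsewhere, with Spink2 at 0 in every stage) and 9 of 11 myeloid markers, such as Mpo (168 CPM there). Another 271 cells of S0-low lay in an unnamed cluster with Cd34 among its leading genes, against 0 to 5 in each later stage. Member ratios that start from S0-low are therefore also given without the 230 cells in clusters of other types or of primitive red cells, and without the Cd34 cluster as well, a setting chosen after the data had been seen. An unnamed cluster of 59 cells, with Sparc, Dcn, Lyve1 and Col3a1 among its leading genes, was not left out. How many of its cells lay in S0-low was not counted.

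**Figure D1:**
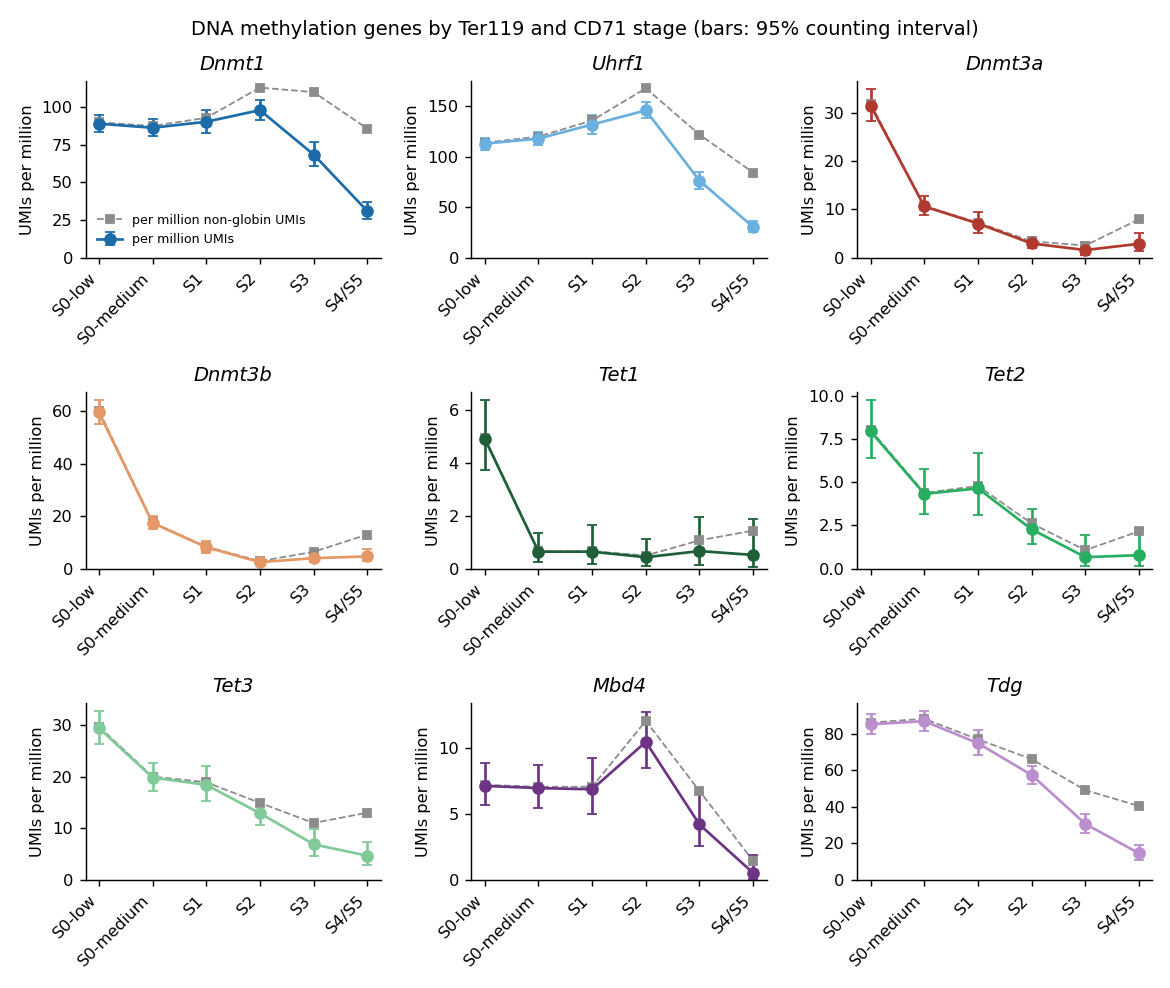
Level of each of the 9 genes in the 6 stages, in CPM (filled circles, bars for 95% counting intervals) and in non-globin CPM (grey squares); each panel has its own axis from 0. Dnmt1 and Uhrf1 are highest in S2 (98.0 and 146 CPM), whereas Dnmt3a and Dnmt3b are highest in S0-low (31.5 and 59.5 CPM) and low from S2 on.

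The maintenance pair kept its level while Ter119 was low and lost it only in the last stages. Dnmt1 stood at 89.0, 86.3, 90.3, 98.0, 68.5 and 30.9 CPM, with counting intervals of 83.6 to 94.6 in S0-low and 25.6 to 36.9 in S4/S5. No neighbouring pair among its first 4 stages, ordered by level, differed beyond counting error. The highest and lowest of these, S2 (91.7 to 105) and S0-medium (80.9 to 92.0), were not compared directly. Uhrf1 stood at 113, 118, 132, 146, 76.3 and 30.3 CPM, with an interval of 138 to 154 in S2. For Uhrf1 each step from S0-medium to S2 was small but larger than counting error, with S2 1.10-fold above S1 (1.01 to 1.21). In non-globin CPM, from S2 to S4/S5, Dnmt1 was at 113, 110 and 85.8 and Uhrf1 at 168, 122 and 84.3. The fall of both genes was thus much smaller on that scale. In UMIs per cell it was larger than in CPM, with Dnmt1 at 0.700, 0.369 and 0.133 and Uhrf1 at 1.04, 0.411 and 0.130. Median depth fell as well over these stages, from 6021 UMIs in S2 to 3949 in S4/S5.

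The de novo enzymes fell early. Dnmt3b was at 59.5, 17.4, 8.17, 2.48, 3.99 and 4.67 CPM (55.2 to 64.1 in S0-low and 1.57 to 3.72 in S2). Dnmt3a was at 31.5, 10.6, 7.05, 2.91, 1.55 and 2.85 CPM (28.4 to 34.9 in S0-low and 1.92 to 4.24 in S2). In CPM every step of both genes from S0-low to S2 exceeded counting error. The 3 lowest stages in CPM of Dnmt3a and of Dnmt3b could not be ordered. From S2 on each stage rested on 7 to 27 UMIs of these genes. With globin left out, Dnmt3b was at 2.86, 6.40 and 13.0 CPM from S2 to S4/S5, the last above its 8.40 CPM in S1. Dnmt3a was at 3.35, 2.49 and 7.93 CPM on that scale, against 7.25 CPM in S1. The late stages were thus not the lowest for either gene once globin was left out, and their order on that scale was not tested. The 9 markers of early progenitors were read with globin counted. Of these, Plac8 was at 24.3 and 54.2 CPM in S2 and S4/S5, Cd34 at 1.19 and 3.89 CPM and Meis1 at 0.647 and 3.11 CPM. Flt3, Hlf, Mecom and Gcnt2 lay between 0.216 and 0.519 CPM and Ly6a and Spink2 at 0. Whether transcripts from other cells add to the late Dnmt3b counts was not tested.

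The share of cells with a transcript followed the levels once every cell was thinned to 2000 UMIs. For Dnmt3b it was 11.5, 3.04, 1.14 and 0.694% over the first 4 stages, from unthinned shares of 28.4, 14.7, 7.03 and 1.70%. For Dnmt1 it was 15.7% in S0-medium, 17.1% in S2 and 6.24% in S4/S5, from unthinned shares of 53.6, 45.3 and 11.1%. A cluster of 75 primitive erythroid-like cells, which are rich in globin, was taken with its low counts known. In it both shares were 0 of 75, which allows up to 4.80%. This sets no level of background for the stages. Median depth was 3949 to 10282 UMIs over the stages and 4881 UMIs in the 75 cells.

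Dnmt3l, the catalytically inactive cofactor of the de novo enzymes, had 1 UMI in S0-low and 0 in every other stage, which allows up to 0.276 CPM in S0-medium (3 counts of its total).

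The 3 TET genes did not share a course. Tet1 was at 4.91 CPM in S0-low (57 UMIs) and between 0.432 and 0.665 CPM in the later stages, which had 2 to 7 UMIs each and could not be ordered. Tet2 was at 7.93, 4.32, 4.64, 2.27, 0.665 and 0.778 CPM, on 92, 47, 29, 21, 3 and 3 UMIs. Tet3 had smaller steps, with 29.4, 19.8, 18.4, 12.9, 6.87 and 4.67 CPM. Tet1 was thus near its lowest level by S0-medium, whereas Tet3 was still read in every stage from at least 18 UMIs.

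The glycosylases differed as well. Tdg was at 85.2, 86.9, 74.8, 57.4, 30.6 and 14.5 CPM. In CPM each of its steps after S0-medium was a decrease that exceeded counting error, including 1.30-fold from S1 to S2 (1.15 to 1.48). With globin left out Tdg was at 66.1, 49.1 and 40.4 CPM from S2 to S4/S5. Mbd4 was at 7.15, 6.98, 6.89, 10.5, 4.21 and 0.519 CPM, and with globin left out at 12.1, 6.76 and 1.44 CPM from S2 to S4/S5. S2 was its highest stage, 1.46-fold above S0-low (1.08 to 1.99), and only 2 UMIs of Mbd4 were read in the 898 cells of S4/S5. Its first 3 stages did not differ beyond counting error, but with other gates on the antibodies S0-medium was as low as 0.503 of S0-low.

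The stages were then compared step by step. A gene was tested in a step if both stages together held at least 50 of its UMIs, and it was called when its level differed by 1.5-fold or more. From S0-low to S0-medium 4 of 9 tested members were called lower and 0 higher, against 19.7% of all 9834 genes lower and 4.96% higher. The 4 were Tet1 at 7.63-fold lower (3.48 to 19.8), Dnmt3b at 3.43-fold (2.91 to 4.05), Dnmt3a at 2.98-fold (2.41 to 3.71) and Tet2 at 1.84-fold (1.28 to 2.67). With the cells of other types left out they were 7.25, 3.73, 2.60 and 1.73-fold lower. Without the Cd34 cluster as well, Dnmt3b was 2.52-fold lower (2.1 to 3.02) and Dnmt3a 1.80-fold (1.40 to 2.31), Tet1 had too few UMIs to be tested (3.08-fold, 1.2 to 8.87), and Tet2 was no longer called or beyond counting error at 1.18-fold (0.755 to 1.83). The size of this first step thus changed when the cells of the Cd34 cluster were left out. Tet3 lay just outside the limit, at 1.49-fold lower (1.25 to 1.77), and Dnmt1, Uhrf1, Mbd4 and Tdg lay between 0.970 and 1.05 times their S0-low level. Of these 4, Mbd4 depended on the gates and was called lower in 4 of 18 other treatments, at ratios down to 0.503. Counted as UMIs per cell these 4 were 1.30 to 1.40 times higher in S0-medium, whose cells held more UMIs.

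From S0-medium to S1 1 of 8 tested members was called lower and 0 higher, against 8.93% of 8659 genes lower and 3.08% higher. Dnmt3b was 2.13-fold lower in S1 (1.55 to 2.96), below all but 1.31% of the genes tested. Dnmt3a missed the limit narrowly at a ratio of 0.667 (0.460 to 0.952), and it was called in 12 of 18 other treatments of the data. Uhrf1 was 1.12 times higher (1.02 to 1.22).

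From S1 to S2 3 of 8 tested members were called lower, against 29.2% of 8217 genes, and 1 higher, against 4.93%. Dnmt3b was 3.29-fold lower (1.97 to 5.64), Dnmt3a 2.42-fold (1.46 to 4.06) and Tet2 2.05-fold (1.13 to 3.78). Only 0.499% of genes had a lower ratio than Dnmt3b in this step. Tet2 was the least firm, with 50 UMIs in both stages together, a ratio of 0.333 to 1.02 over 18 other treatments, enough UMIs for a call in 13 of them and a call in 10. Mbd4 was just inside the limit at 1.52-fold higher (1.05 to 2.23), was called in 10 of 18 other treatments, and was 1.06-fold higher when counted as UMIs per cell.

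From S2 to S3 4 of 5 tested members were called lower and 0 higher, against 57.1% of 7602 genes lower and 4.45% higher. Mbd4 was 2.48-fold lower (1.51 to 4.30), Uhrf1 1.91-fold (1.70 to 2.16), Tet3 1.88-fold (1.26 to 2.89) and Tdg 1.88-fold (1.55 to 2.28), while Dnmt1 was 1.43-fold lower (1.26 to 1.63). The median gene was at 0.629 of its S2 level, so these 4 were not set apart from the rest by their direction. On the non-globin scale 1 member stayed below the limit, Mbd4 at a ratio of 0.561. On that scale the median over all genes was 0.877, and 16.1% of them were called lower.

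From S3 to S4/S5 all 3 tested members were called lower and 0 higher, against 77.9% of 5556 genes lower and 1.21% higher. Uhrf1 was 2.51-fold lower (2.03 to 3.13), Dnmt1 2.22-fold (1.79 to 2.77) and Tdg 2.11-fold (1.53 to 2.93). The median gene was at 0.505 of its S3 level. On the non-globin scale 0 of the 3 passed the limit, with ratios of 0.689, 0.781 and 0.823, against 19.3% of all genes called lower.

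Over the whole course from S0-low to S3, 7 of 9 members were called lower and 0 higher, against 76.4% of 9407 genes lower and 8.08% higher. The count is close to the background, but the sizes were spread widely. Dnmt3a was 20.3-fold lower (9.76 to 50.9), Dnmt3b 14.9-fold (9.37 to 25.3), Tet2 11.9-fold (3.95 to 58.8) and Tet1 7.38-fold (2.40 to 36.8). Tet3 was 4.27-fold lower (2.95 to 6.39), Tdg 2.78-fold (2.33 to 3.35) and Mbd4 1.70-fold (1.02 to 2.96). Dnmt1 was 1.30-fold lower (1.14 to 1.48) and Uhrf1 just outside the limit at 1.48-fold lower (1.31 to 1.67). Uhrf1 was called in 8 of 18 other treatments and Dnmt1 in 2 of 18. Without the cells of other types Dnmt3a was 17.3-fold lower, Dnmt3b 15.7-fold, Tet2 11-fold, Tet1 6.86-fold, Tet3 4.18-fold, Tdg 3.04-fold, Mbd4 1.81-fold, Uhrf1 1.57-fold and Dnmt1 1.33-fold. Without the Cd34 cluster as well Dnmt3a was 12-fold, Dnmt3b 12.7-fold, Tet2 7.48-fold, Tet1 4.38-fold and Tet3 3.9-fold lower, and Mbd4 was no longer beyond counting error at 1.38-fold (0.798 to 2.49).

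Against all genes, 2.58% had a lower S3 to S0-low ratio than Dnmt3a and 4.03% a lower one than Dnmt3b. Tdg lay near the middle, with 47.0% below it, and 80.7% of genes had a lower ratio than Dnmt1 and 76.8% a lower one than Uhrf1. The median ratio was 0.234 over the members and 0.379 over all genes. In non-globin CPM Dnmt1 was 1.22 times and Uhrf1 1.07 times as high in S3 as in S0-low. Mbd4 was no longer called at 0.935 times, and the other 6 were still called lower. Over all genes 55.4% were called lower and 14.8% higher on that scale.

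**Figure D2:**
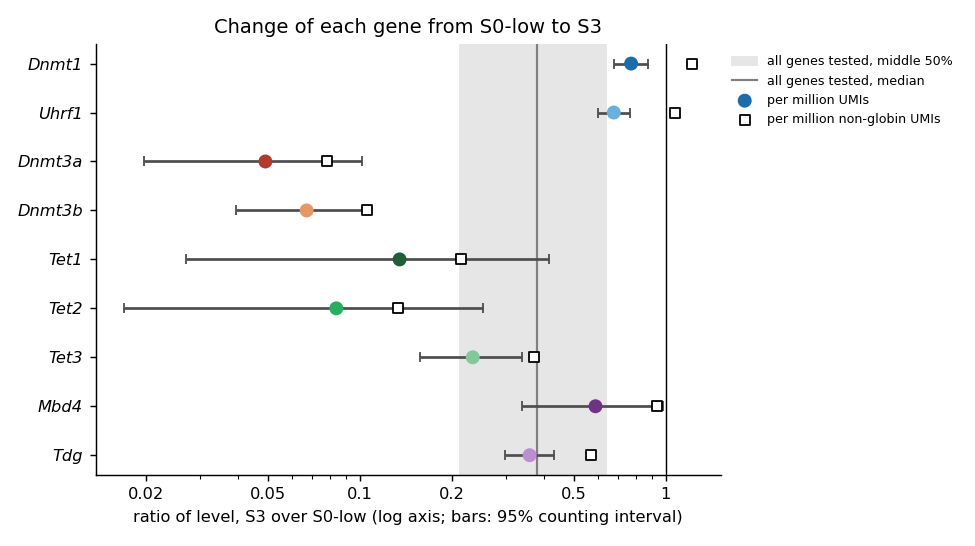
Ratio of each gene's level in S3 to that in S0-low on a log axis, in CPM (coloured, bars for 95% counting intervals) and in non-globin CPM (open squares), with the middle 50% of all 9407 genes in grey and their median of 0.379 as a line. In CPM, Dnmt3a, Dnmt3b, Tet2 and Tet1 lie left of the grey band (0.213 to 0.639) and Dnmt1 and Uhrf1 to its right.

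Stages cut a continuum, so the Ter119-low cells were also put into 10 equal groups by rising CD71 count. Dnmt3b fell along these groups from 136 CPM in the lowest to 89.2, 43.0, 35.8, 22.6, 23.9, 15.4, 13.0, 11 and 5.32 CPM. That is a 25.5-fold difference between the ends (15.5 to 44.6), or 28.7-fold without the cells of other types, which made up 74 of the 318 cells in the lowest group. Dnmt3a went from 66.3 to 4.70 CPM, a 14.1-fold difference (8.17 to 26.1), and from 61.8 to 4.40 CPM without those cells. Without the Cd34 cluster as well the differences were 12.2-fold for Dnmt3b (7.11 to 22.5) and 6.24-fold for Dnmt3a (3.18 to 13.4). The decline of Dnmt3b was thus spread over the CD71 range and not a step at 1 border.

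Dnmt1 was 96.8 CPM in the lowest CD71 group and 93.0 CPM in the highest, a ratio of 0.961 (0.787 to 1.18). Tdg had a ratio of 0.942 (0.760 to 1.17) over the same groups. Neither therefore differed beyond counting error between the ends of the range where Dnmt3b lost most of its transcripts. Within that range Tdg was highest in group 4, at 90.4 CPM (79.7 to 102), and lowest in group 9, at 71.0 CPM (62.1 to 80.7). Uhrf1 was 1.30-fold higher in the highest group (1.09 to 1.56), but 1.14-fold without the cells of other types (0.958 to 1.36) and 1.44-fold without the Cd34 cluster as well (1.2 to 1.73). Tet3 was 2.23-fold and Tet2 2.71-fold lower in the highest group, from 37.0 to 16.6 and from 15.3 to 5.64 CPM. Without the Cd34 cluster Tet3 was still 2.25-fold lower, whereas the ratio of Tet2 was 0.984 (0.413 to 2.45).

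**Figure D3:**
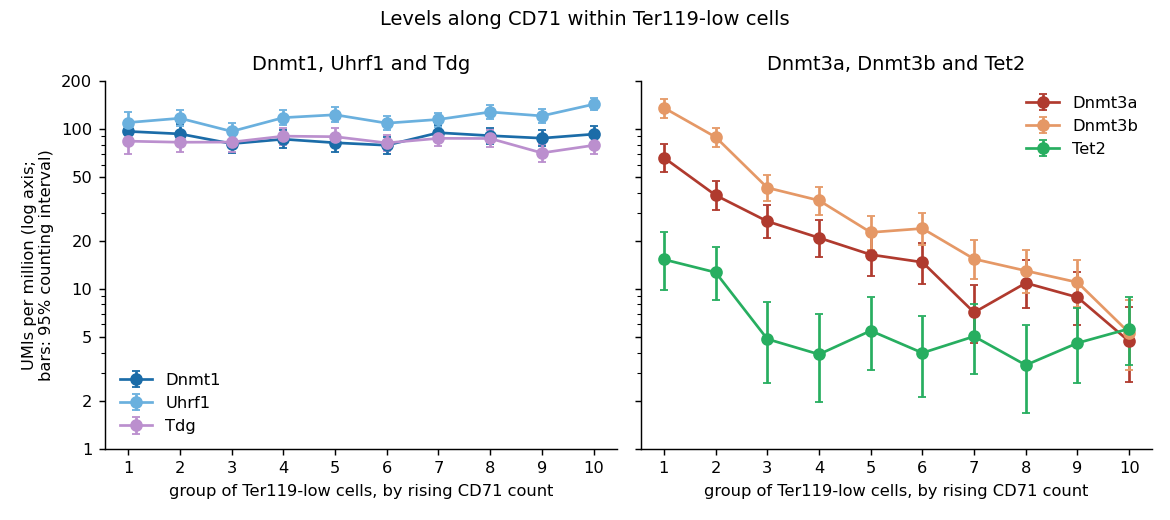
Levels of 6 genes in 10 equal groups of Ter119-low cells ordered by CD71 count, on a log axis with 95% counting intervals. Between the first and the last group Dnmt1 (96.8 and 93.0 CPM) and Tdg, both left, do not differ beyond counting error. Uhrf1 (left) is 1.30-fold higher in the last group. Dnmt3b and Dnmt3a (right, with Tet2) fall from 136 to 5.32 and from 66.3 to 4.70 CPM.

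Within S0-low the cells were ordered by cKit, the stem cell factor receptor of early progenitors, into 4 equal groups. The lowest of these held 135 cells of other types among 378, so the values without them lead here. Without them Dnmt3b was 2.58-fold higher in the highest cKit group than in the lowest (1.90 to 3.58), at 81.7 against 31.6 CPM. Dnmt3a was 1.08-fold higher (0.739 to 1.61), at 27.8 against 25.7 CPM. The de novo genes, which fell together along CD71, were thus apart along cKit: Dnmt3b was higher in the highest cKit group and Dnmt3a did not differ beyond counting error. Without the Cd34 cluster as well the ratios were 2.09 (1.44 to 3.14) and 1.19 (0.690 to 2.16), and with all S0-low cells 4.99 and 0.767. Uhrf1 changed direction with these cells, from 1.25 with them to 0.828 without (0.697 to 0.987), and Dnmt1 went from 1.71 to 1.24 (1.01 to 1.52).

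At the other end, the Ter119-high cells were put into 4 groups by CD71. Dnmt1 was 25.2 CPM in the group with least CD71 and 72.5 CPM in the group with most, and Uhrf1 30.1 and 91.0 CPM. With globin left out these were 80.0 and 108 CPM for Dnmt1 and 95.6 and 135 CPM for Uhrf1, and the group with least CD71 held 31 of 434 cells in clusters of other types, primitive red cells included. S2 was cut into 4 groups by Ter119 in the same way. Uhrf1 was at 145, 161, 158 and 113 CPM, the last at 0.776 of the first (0.655 to 0.918). Tdg went from 62.3 to 45.2 CPM (0.725, 0.553 to 0.944). Globin took 6.35% of UMIs in the first and 22.9% in the last group, and with globin left out neither differed beyond counting error, at 0.943 for Uhrf1 (0.796 to 1.12) and 0.881 for Tdg (0.672 to 1.15). Mbd4 was at 9.53, 11.4, 14 and 6.75 CPM, and its last group did not differ from the first beyond counting error (0.708, 0.334 to 1.43).

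S1 and S2 were also split into 3 equal groups by α-globin share, a grouping chosen after the data had been seen, with levels in non-globin CPM. In S1 Dnmt3b was at 12.6 in the group with least α-globin and 2.99 in the group with most (33 and 4 UMIs), a ratio of 0.237 (0.0609 to 0.665). Dnmt1 had a ratio of 1.40 in S1 (1.13 to 1.73) and Uhrf1 one of 1.30 (1.09 to 1.55). In S2 Tdg had a ratio of 0.727 (0.545 to 0.957). Within S1, then, Dnmt3b was a smaller and the maintenance pair a larger share of non-globin UMIs in the cells with more α-globin. The groups with least and with most α-globin, of 204 cells each, held 215 and 154 UMIs of Dnmt1 and 318 and 212 of Uhrf1. Counted per cell, the maintenance pair was thus lower in the cells with more α-globin.

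Maintenance methylation is tied to replication, so each stage was cut into 3 equal groups of cells by the share of UMIs in 34 replication genes, which hold none of the members. Uhrf1 was higher in the group with most replication transcripts in all 6 stages. It was 74.4 CPM in the low group and 152 CPM in the high group of S0-low, a ratio of 2.05 (1.77 to 2.37). Without the cells of other types the S0-low ratio was 1.58 (1.36 to 1.83). The ratio was 1.57 in S0-medium (1.37 to 1.82), 1.67 in S1 (1.41 to 1.99) and 1.84 in S2 (1.58 to 2.13). It was 4.55 in S3 (3.20 to 6.64) and 1.95 in S4/S5 (1.24 to 3.14). Globin took 57.6% of UMIs in the low and 23.6% in the high group of S3, and with globin left out of both the grouping and the level the S3 ratio was 3.03.

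Dnmt1 followed the replication genes in fewer stages. Its ratio was 1.38 in S0-low (1.17 to 1.62), or 1.13 without the cells of other types (0.954 to 1.35), 1.05 in S0-medium (0.891 to 1.23), 0.990 in S1 (0.801 to 1.22) and 1.38 in S2 (1.16 to 1.65). In S3 it was 3.55 (2.46 to 5.24), or 2.28 with globin left out, and in S4/S5 3.68 (2.21 to 6.44), or 1.75. In S0-medium and S1 the intervals of Uhrf1 thus lay above those of Dnmt1 without overlap, whereas after thinning they overlapped. Cells of the high group were deeper in S0-low (median 6743 against 5388 UMIs) and shallower in S1 (9482 against 10792).

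In the first 3 stages none of the other 7 members was higher beyond counting error in the group with most replication transcripts, and some were lower. Mbd4 came nearest, with ratios of 1.65 in S0-medium (0.9 to 3.07) and 1.53 in S1 (0.735 to 3.23), and it passed counting error in S0-medium when each stage was cut into 2 groups (1.67, 1.03 to 2.74). Dnmt3a had a ratio of 0.559 in S0-low (0.432 to 0.722) and Dnmt3b one of 0.923 (0.766 to 1.11). Without the cells of other types they were 0.626 (0.462 to 0.847) and 0.665 (0.546 to 0.810), and without the Cd34 cluster as well 1.25 (0.829 to 1.91) and 0.916 (0.694 to 1.21), so neither direction held in S0-low. In S0-medium Dnmt3b was at 11.3 CPM in the high and 22.5 CPM in the low group. Tet3 was at 13.7 against 26.3 CPM in S0-medium, a ratio of 0.522. Tdg ran level, with ratios of 1.12 in S0-medium, 0.957 in S1 and 0.992 in S2. Its ratio of 5.28 in S3 (2.73 to 11.4) was 1.29 with globin left out (0.788 to 2.19), and its ratio of 4.38 in S4/S5 (2.02 to 10.8) was 2.71 (1.22 to 6.82). Dnmt3b was higher in the high group of S4/S5, by 14 against 2 UMIs (6.28, 1.44 to 57.0).

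**Figure D4:**
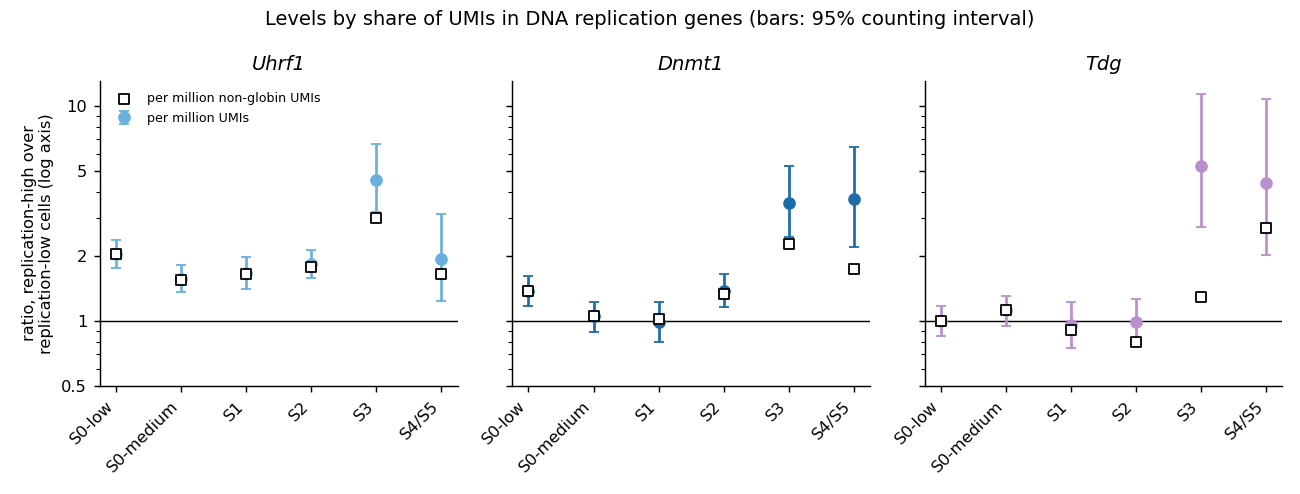
Ratio of the level of Uhrf1, Dnmt1 and Tdg between the groups of cells with most and with least replication transcripts in each stage, on a log axis, in CPM (filled, 95% counting intervals) and in non-globin CPM (open squares). In CPM and with all cells of each stage, Uhrf1 lies above 1 in all 6 stages, from 1.57 to 4.55, and Tdg at about 1 from S0-low to S2.

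The members were also read in clusters that carry markers of other cell types, whether or not their cells lay in a stage. These clusters were set against the 1280 cells of S0-low that lie outside them, 271 of them in the Cd34 cluster. Dnmt3a was highest in the 146 megakaryocyte-like cells, at 188 CPM (166 to 213), which was 6.83 times its level in those S0-low cells (5.73 to 8.15). It was also higher in macrophage-like cells, at 86.3 CPM or 3.13 times (2.26 to 4.26), in myeloid-like cells, at 50.1 CPM or 1.82 times (1.43 to 2.30), and in hepatocyte-like cells, at 44.8 CPM or 1.62 times (1.28 to 2.05). Dnmt3b did not follow. It was 56.5 CPM in megakaryocyte-like cells, at a ratio of 0.880 (0.684 to 1.12), 48.6 CPM in myeloid-like cells, 10.6 CPM in macrophage-like cells, at 0.164 (0.0601 to 0.360), and 10.2 CPM in hepatocyte-like cells, at 0.159 (0.0998 to 0.240). Coarser clusters, which put 761 cells in the myeloid-like class and not 273, gave 124 CPM for Dnmt3a and 78.8 CPM for Dnmt3b in megakaryocyte-like cells. They gave 103 CPM for Dnmt3b in myeloid-like cells, above and not below the 64.3 CPM of the S0-low cells. The coarser myeloid-like class had the early progenitor marker Plac8 among its leading genes, and Emb, which also led the Cd34 cluster. The finer class had neither, so the values belong to unlike sets of cells. How many cells of the coarser class came from the Cd34 cluster was not counted.

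Tet2 was higher in myeloid-like cells, at 16.5 CPM or 2.21 times (1.41 to 3.39), and in macrophage-like cells, at 17.6 CPM or 2.35 times (1.08 to 4.58, 10 UMIs). Tet3 was 1.59 times higher in megakaryocyte-like cells, at 46.9 CPM on 63 UMIs. The maintenance pair was low in hepatocyte-like cells, with ratios of 0.487 for Dnmt1 (0.393 to 0.599) and 0.353 for Uhrf1 (0.284 to 0.435), and Tdg was at 0.419 there (0.332 to 0.523). The 75 primitive erythroid-like cells, with 81.7% of UMIs in globin, held 2 UMIs of Uhrf1, 1 of Tdg and 0 of the other 7 members, which allows up to 7.87 CPM of each (3 counts).

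**Figure D5:**
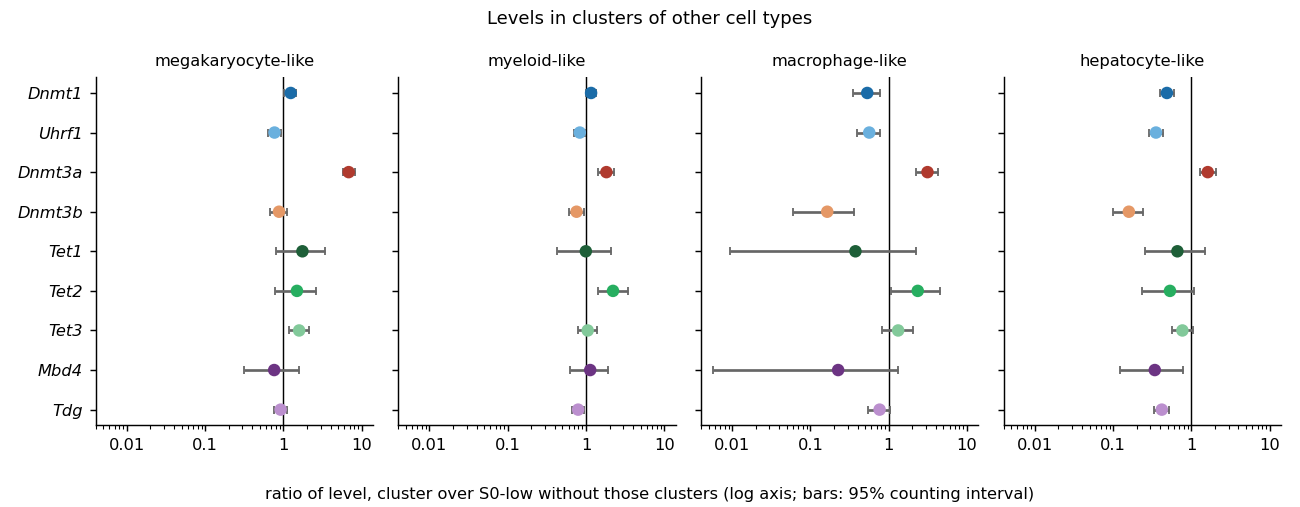
Ratio of each gene's level in 4 clusters of other cell types to that in S0-low cells outside such clusters, on a log axis with 95% counting intervals. Dnmt3a lies right of 1 in all 4 panels, up to 6.83 in megakaryocyte-like cells, and Dnmt3b far left of 1 in the macrophage-like (0.164) and hepatocyte-like (0.159) panels.

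Each stage was next cut into 4 equal groups by its antibody, and the course of a member over the 24 groups was set beside that of 6338 genes. The groups share 1 library and a changing globin share, so these correlations describe shape only. Dnmt3a and Dnmt3b were each other's closest gene (Pearson r = 0.977), and Arpc1b was the second for both. Tmsb10, Ralgps2 and Rnf130 followed for Dnmt3a, and Mapkapk3, Sptssa and Pcbp4 for Dnmt3b. Uhrf1 was closest to the replication helicase genes Mcm6 (0.984) and Mcm3 (0.983), then to Hat1, Gmnn and Tipin. Among the 5 genes closest to Dnmt1 were Ube2a, mt-Co3, Psmb7 and Cox6b1. Tdg was closest to Hnrnpu (0.990), Bclaf1, Ddx39b, Park7 and Emc6. Among the 5 closest to Tet3 were Atg101 (0.959), Arpc2, Ankrd39 and Aes, and Mbd4 was closest to Golga7 (0.920), Zfp512, Rps4x, Klf13 and Vasp. Between members r was 0.94 for Dnmt1 with Uhrf1 and 0.25 for Dnmt1 with Dnmt3b. Uhrf1 was not among the 5 genes closest to Dnmt1, of which Cox6b1 was the last at 0.968. How many of the 6338 genes were closer to Dnmt1 than Uhrf1 was not counted. Mbd4 and Tdg also moved with the maintenance pair, at 0.86 and 0.84 with Dnmt1 and 0.91 and 0.90 with Uhrf1. Their promoter windows held no E2F-type word.

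The genes around these enzymes were counted over the same course, S0-low to S3, where the median gene was at 0.379 of its S0-low level and 76.4% of all genes were called lower and 8.08% higher. Each count and median is to be read against these shares and that median. Without the cells of other types, and without the Cd34 cluster as well, each list's count of lower genes stayed within 2 of the one given. Of 8 tested genes for methyl-CpG readers and related proteins, all 8 were called lower, with a median of 0.446, above that of all genes. They were led by Zbtb38 at a ratio of 0.131, Mbd3 at 0.188 and Zbtb33 at 0.268. Mbd3, a subunit of the NuRD repressor complex, was 265 CPM in S0-low and 49.7 CPM in S3. On the non-globin scale 3 of the 8 were called lower, against 55.4% of all genes. Among partners of maintenance 4 of 7 were called lower and 0 higher, with a median of 0.574. The chromatin remodeller Hells (0.233) and its partners Cdca7 (0.202) and Cdca7l (0.186) were lowest, whereas Pcna, the sliding clamp of replication, stood at 136 CPM in S0-low and 174 CPM in S3.

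Of 10 tested genes of base excision repair, the pathway in which Tdg and Mbd4 also act, 9 were called lower and 1 higher. Their median was 0.216. Smug1 (0.0677), Apex1 (0.159) and Lig3 (0.161) fell most. The glycosylase gene Neil3 went the other way, from 19.9 CPM in S0-low to 94.6 in S2 and 86.7 in S3, a ratio of 4.36. Of 11 genes that supply methyl donors 7 were called lower and 1 higher, the last within counting error, with a median of 0.377. Shmt1 fell from 73.6 to 5.99 CPM, and Ahcy (0.144) and Mthfd1 (0.187) followed. Of 9 tested genes for TET substrates and cofactors 8 were called lower, with a median of 0.341, led by Cxxc5 (25.8 to 1.55 CPM), Idh1 (37.3 to 6.21) and Idh2 (167 to 29.3). Idh1 was at 6.62 CPM already in S0-medium, and its ratio of 0.166 was 0.455 without the cells of other types and 0.599 without the Cd34 cluster as well. Cxxc5 went from 0.0601 to 0.159 without both.

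Of 10 genes for histone methylation linked to DNA methylation 9 were called lower, with a median of 0.270, led by Ehmt2 (0.112), Ehmt1 (0.131) and Trim28 (0.173). Replication and mitosis genes stood apart from these lists. Of 34 replication genes 13 were called lower and 2 higher, with a median of 0.762. Rfc5 (0.365), Gins2 (0.384) and Rpa3 (0.385) were the lowest, and Rrm2 (3.57) and Slbp (1.93) the 2 that rose. Of 20 mitosis genes 11 were called higher and 0 lower, with a median of 1.68, led by Nusap1 (6.41), Ube2c (4.00) and Mki67 (3.41). Dnmt1, at 0.770, and Uhrf1, at 0.676, thus lay near the median of the replication genes, and the de novo pair far below the median of every list.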

How the data were processed

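Both tables hold counts as the authors deposited them, with no normalization: transcript UMIs from a 10x 3′ library mapped to mm10 with Cell Ranger, and antibody barcode counts made by CITE-seq-Count. All 7863 barcodes were shared by both libraries.

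Limits of 300 and 5000 detected genes and of 9% mitochondrial UMIs were set per cell, and 128 doublet calls (1.63%, Scrublet method, 6% expected) were removed. Counts of 5 lineage antibodies were summed, and cells above 95.8 (2 scaled median absolute deviations over the median of log(1 + count)) were left out. The same limit on the linear scale was run first, so the log scale was chosen with the resulting cell numbers seen, and the linear scale is kept as an alternative. The antibody counts then received a centered log ratio scaling, taken across cells, and Ter119 and CD71 were split by k-means (scikit-learn 1.9.0). These gates stand in for the authors' own. Cells were clustered with scanpy 1.11.5 at a Leiden resolution of 0.8 and named from fixed markers.

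Levels are pooled CPM with exact Poisson intervals, ratios have exact conditional binomial intervals, and a call needs 1.5-fold and 50 UMIs. Intervals cover counting error only. The calling was tested on simulated data for S0-low to S3: of 200 genes changed among 9459, 199 were called in the right direction. The changes put in all lay beyond the 1.5-fold limit, and the counts varied by counting error only. The run therefore does not bear on calls near the limit or on spread between cells. Gene windows came from RefSeq on GRCm38.p6, the assembly of mm10. The members and lists were chosen with earlier results of these data known. Named genes were the members, the 3 largest called rises and falls of each list from S0-low to S3, and the 5 genes closest in course to each member with at least 300 UMIs; markers, Dnmt3l, Pcna and genes that overlap a member are named besides, after their values were seen. A few genes that these rules would name are not reported here.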

Additional observations from a re-analysis of the deposited data

How the results depend on the processing

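With 1 library per kind there is no replicate to leave out, and no paired analysis was possible because the comparisons are between cells of a single library and come from no test. Of 968 member ratios recomputed under other treatments, 875 stayed within their counting interval and 92 moved outside it. Among the 413 that belong to a called difference 1 crossed to the other side of 1: Tet2 from S1 to S2, at 1.02 with antibodies scaled within each cell. Of the 555 that belong to differences not called 69 crossed, among them Dnmt1 from S0-low to S3 (0.539 to 1.22). Gates on log10 counts, within-cell scaling or Gaussian mixtures cut S0-low to 609 to 638 cells.

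Of 240 counts of members called, 208 kept within 1.5 times. Except per non-globin UMIs, the share of all genes called is not given beside the counts below. They show how the calls moved and cannot be set against a background. Median depth was 10152 UMIs in S1 and 6021 in S2, which enters the counts per cell. Without the Cd34 cluster (added) the lower count of 4 from S0-low to S0-medium became 2. From S0-medium to S1 the lower count of 1 became 2 with UMIs per cell, log10 antibody counts, within-cell scaling, Gaussian mixtures, CD71 terciles, border cells left out, no lineage filter, a lineage limit of 1 scaled deviation, no limits on genes or mitochondrial UMIs, cells rich in embryonic globin left out, the linear lineage limit (added), or the Cd34 cluster left out (added), and 0 after thinning. From S1 to S2 the higher count of 1 became 0 with UMIs per cell, log10 counts, within-cell scaling, Gaussian mixtures, terciles, no limits, doublets kept, thinning or a 2-fold limit, and the lower count of 3 became 5 with UMIs per cell and 0 after thinning, where few genes keep 50 UMIs. From S2 to S3 the higher count of 0 became 2 with no minimum of UMIs, and the lower count of 4 became 1 per non-globin UMIs or at 2-fold. From S3 to S4/S5 the higher count of 0 became 1 with no lineage filter or no minimum, and the lower count of 3 became 0 per non-globin UMIs and 5 with log10 counts.

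Per non-globin UMIs 55.4% of all genes were lower and 14.8% higher from S0-low to S3. On that scale the list counts became 3 lower for methyl-CpG readers and related proteins, 3 higher for maintenance partners and 2 higher for methyl donor supply. They became 5 lower for TET substrates and cofactors, 11 higher and 3 lower for replication and 18 higher for mitosis. With no minimum 1 TET cofactor gene (Cxxc4, on 1 UMI) was higher. Without the cells of other types, with or without the Cd34 cluster (added), methyl donor supply had 0 higher. By replication share, thinning gave 1.49 for Uhrf1, 1.72 for Tet2 and 0.826 for Tdg in S0-low, 1.24 for Uhrf1 and 0.287 for Tet3 in S0-medium, 0.765 for Dnmt1 in S1 and 2.61 for Uhrf1 in S2. With the cells of other types left out of S0-low (added) Dnmt1 was 1.13, Dnmt3b 0.665, Uhrf1 1.58 and Tdg 0.851, and with the Cd34 cluster left out too Dnmt1 was 1.09, Uhrf1 1.51, Tdg 0.791 and Dnmt3a 1.25, the other side of 1. A split of each stage into 2 equal groups gave 1.68 for Uhrf1 in S0-low, and 1.12 for Dnmt1 and 1.54 for Uhrf1 in S2. Per non-globin UMIs (added) the S3 ratios were 2.28 for Dnmt1, 3.03 for Uhrf1 and 1.29 for Tdg, and Dnmt1 was 1.75 in S4/S5. Clusters at resolution 0.4 gave 124 CPM of Dnmt3a and 78.8 of Dnmt3b in megakaryocyte-like cells, and 103 of Dnmt3b and 11.2 of Tet1 in myeloid-like cells. The causes of these shifts were not tested beyond the changed denominator or filter itself. Alternatives marked as added were chosen after the data had been seen. Depth limits Tet1, Tet2, Mbd4 and the late stages of Dnmt3a and Dnmt3b.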

Other observations

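The 6424 lineage-low cells include 215 that fall in no stage, Ter119-intermediate cells whose CD71 lies below the border of S2. In them Dnmt1 was 76.9 CPM (80 UMIs), Uhrf1 122 CPM (127 UMIs), Tdg 49.0 CPM (51 UMIs), Dnmt3a 7.69 CPM (8 UMIs) and Dnmt3b 3.84 CPM (4 UMIs).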
